A study of Mus musculus with 2 samples.

Results

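Islet cells that carried UMIs (unique molecular identifiers, each marking 1 captured RNA molecule) of 10 or more cell cycle genes were rare, 28 of 1483, and 23 of them lay outside the hormone cells. The list examined holds 36 genes, 26 of the G2 phase and mitosis (called mitosis genes here) and 10 of the entry into and passage through DNA replication (replication genes), and all 36 had a row in both count tables, of 33038 genes listed in either. A cell was counted when it held UMIs of at least 5 of the 36 genes, and 102 of 1483 cells met this rule, 42 of 735 in library 1 and 60 of 748 in library 2. Each cell was also placed in a hormone group by which of insulin (Ins1 and Ins2 summed), Gcg, Sst and Ppy reached 1% of its UMIs, the hormones of beta, alpha, delta and gamma cells. A cell in which none of them reached 1% was called hormone-free.

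Both libraries were made from control pancreatic islets of C57BL/6J mice aged 8 weeks, males by the study's methods, with no treatment, transgene or other genotype in the series. The islets were picked by hand after collagenase digestion and broken into single cells, and islets prepared in this way also carry cells of vessels, blood and ducts. RevGel-seq, the assay, ties each cell to a barcoded bead and keeps the pairs apart in a gel that is later melted. The 2 libraries are technical replicates, each from 10000 input cells, so the spread between them holds no difference between animals, and each p-value below measures that technical spread alone.

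A cell that divides copies its DNA in S phase and separates the copies in mitosis, and most genes of the 2 steps are transcribed only in cells that are in the cycle. Replication genes are largely under E2F factors, while mitosis genes are switched on later, through complexes that read the cell cycle homology region, a short promoter element with the core TTTGAA, often near CCAAT boxes. Beta cells of the adult mouse are known to divide seldom. Some replication genes, among them Pcna and Rrm1, also serve DNA repair and are found at low level in resting cells.

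The promoters of 6 genes are shown because the mitosis and the replication genes behaved differently in the cells described below, and the 2 sets also differ in these letters. The windows come from RefSeq on GRCm38.p6, each with the last 160 bases before the RefSeq start site, which can differ from the gene's end in the Ensembl annotation of the counts. Capitals mark TTTGAA (read as TTCAAA on the other strand) and E2F forms. The E2F forms present in the printed bases are TTTCGCGC and TTTGGCGC or their reverse complements. Top2a (chr11:99024190-99024349, minus strand), Mki67 (chr7:135716380-135716539, minus strand), Cdk1 (chr10:69352913-69353072, minus strand) and Ube2c (chr2:164769769-164769928, plus strand) are mitosis genes. Mcm6 (chr1:128359706-128359865, minus strand) and Mcm5 (chr8:75109349-75109508, plus strand) are replication genes.
Top2a: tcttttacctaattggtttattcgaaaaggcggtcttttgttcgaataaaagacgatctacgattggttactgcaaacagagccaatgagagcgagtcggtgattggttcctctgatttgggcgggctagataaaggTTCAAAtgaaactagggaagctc
Mki67: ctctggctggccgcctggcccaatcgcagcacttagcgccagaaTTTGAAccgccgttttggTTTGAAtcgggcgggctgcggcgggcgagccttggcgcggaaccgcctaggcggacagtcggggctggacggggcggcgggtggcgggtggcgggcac
Cdk1: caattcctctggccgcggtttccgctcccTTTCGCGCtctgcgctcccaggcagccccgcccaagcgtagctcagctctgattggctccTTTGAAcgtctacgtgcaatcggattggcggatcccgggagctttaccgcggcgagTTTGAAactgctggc
Ube2c: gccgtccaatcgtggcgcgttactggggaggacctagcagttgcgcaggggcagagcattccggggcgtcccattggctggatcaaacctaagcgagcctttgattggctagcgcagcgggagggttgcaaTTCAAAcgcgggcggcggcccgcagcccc
Mcm6: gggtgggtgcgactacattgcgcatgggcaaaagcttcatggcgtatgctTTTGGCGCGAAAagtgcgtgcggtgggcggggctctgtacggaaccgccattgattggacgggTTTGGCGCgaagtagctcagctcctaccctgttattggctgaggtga
Mcm5: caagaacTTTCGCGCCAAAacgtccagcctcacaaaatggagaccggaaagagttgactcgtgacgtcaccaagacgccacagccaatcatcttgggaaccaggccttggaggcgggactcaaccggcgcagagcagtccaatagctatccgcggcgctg

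RefSeq windows of 250 bases before to 50 after the start were found for 32 of the 36 genes and not for Aurkb, Ccna2, Kif20a and Tpx2. On either strand TTTGAA was present in 17 of 22 mitosis genes (77.3%) and in 1 of 10 replication genes, Mcm2, against 17.9% of 32851 windows of the same length. E2F forms were found in 4 of 10 replication genes (Mcm3, Mcm5, Mcm6 and Pclaf) and in 1 of 22 mitosis genes, Cdk1, against 2.37% of all windows. These counts cover every E2F form searched for, and the capitals above show only those present in the printed bases. CCAAT was in 19 of 22 and 8 of 10, against 37.4% of all windows. A variant, TTTAAA, was in 7 of 22 and 4 of 10, against 13.2%. These are matches of letters, and no binding was measured.

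The libraries held 15931154 and 17440292 UMIs, with medians of 17340 and 18922 UMIs per cell and minima of 4704 and 5032, and no barcode was shared between them. The 36 genes took 6537 UMIs in library 1 (0.0410% of its UMIs) and 5794 in library 2 (0.0332%). Scrublet, which scores likely doublets, marked 8 cells in each library. UMIs of at least 5 of 10 general endocrine genes such as Chga were found in 1250 of 1250, 45 of 45 and 5 of 5 hormone-positive cells with 0 to 4, 5 to 9 and 10 or more cell cycle genes. Intervals given with shares are exact Clopper-Pearson 95% intervals. Where no cell was counted the text gives instead the share that 3 cells of the total would make, unless it names the interval. Both cover counting error only.

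At least 5 of the 36 genes were found in 5.71% of the cells of library 1 (4.15 to 7.65). For library 2 the figure was 8.02% (6.18 to 10.2), and the mean of both was 6.87% ± 1.63 (SD, n = 2). The threshold cut a continuous slope: 57 and 48 cells held exactly 4 of the genes, and 15 and 24 held exactly 5. Above 9 genes the counts were spread thinly up to the full list, and 2 cells, both in library 2, held all 36. At the other end 294 cells held none. The counted cells are described in a lower class with 5 to 9 genes, of 27 and 47 cells, and an upper class with 10 or more, of 15 and 13 cells.

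The 2 classes differed in depth and in how many cell cycle UMIs they held. The 74 cells of the lower class had a median of 34157.5 UMIs, against 17275 in the 1381 cells with 0 to 4 genes, and a median of 10.5 UMIs of the 36 genes. The 28 cells of the upper class had a median depth of 28840 UMIs and a median of 201 cell cycle UMIs, with a range from 26 to 917. These 28 cells held 65.5% of all UMIs of the 36 genes, 69.1% in library 1 and 61.5% in library 2.

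Below 10 genes, the number detected followed the depth of the cell. When the cells with fewer than 10 genes were split by depth into 4 parts of like size, the mean number of the 36 genes detected was 1.26, 1.37, 1.79 and 2.64 from the shallowest to the deepest, and the number of cells at 5 or more was 4, 6, 16 and 48. Each cell was then thinned at random to 4000 UMIs, those of the hormones included. The same means became 0.571, 0.489, 0.474 and 0.459, and the order turned around. At that equal depth 28 cells still had at least 5 of the genes, where 102 cells had at least 5 before thinning. Of these 28, 4 had insulin alone, 1 had more than 1 hormone and 23 were hormone-free. They are not quite the upper class: 27 of them belonged to it, and the other was a hormone-free cell of the lower class in library 2. The lower class is called by its rule alone in what follows, since depth moved with membership of it and its part in that class was not tested further.

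**Figure D1:**
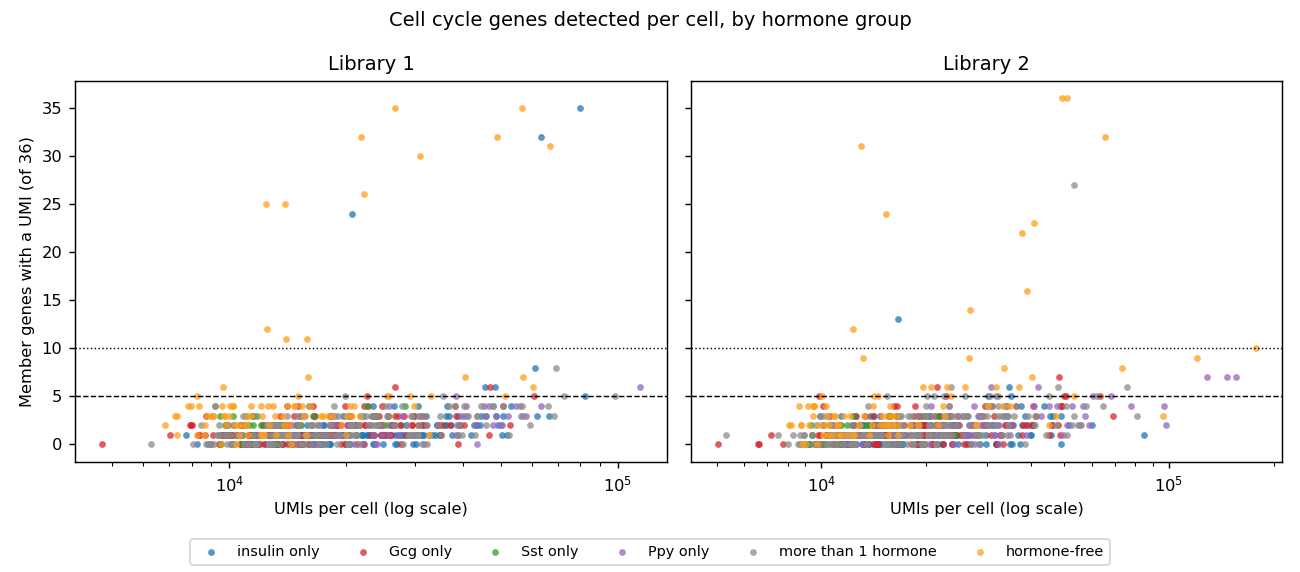
Number of the 36 cell cycle genes with a UMI in each cell (vertical axis) against the cell's total UMIs (horizontal axis, log scale), for library 1 (735 cells) and library 2 (748 cells), coloured by hormone group. The dashed line is at 5 genes and the dotted line at 10. On or above 10 genes lie 28 cells. In library 1 no cell has 9 or 10 genes, while in library 2 both numbers are found. The upper edge of the points below 10 rises with depth.

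The hormone-free cells had the highest share of counted cells. Of 91 and 92 hormone-free cells, 24 and 28 held at least 5 of the 36 genes, which is 26.4% (17.7 to 36.7) and 30.4% (21.3 to 40.9). Of 644 and 656 hormone-positive cells, 18 and 32 did, which is 2.80% and 4.88%. The means were 28.4% ± 2.87 and 3.84% ± 1.47 (SD, n = 2 libraries each). The libraries did not overlap between the groups, and no test of the difference in shares was made. The hormone-free cells were also the shallower ones, with median depths of 13195 and 15014.5 UMIs.

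Among the hormone groups the ranges over the libraries overlapped, apart from Sst cells, none of which was counted. Cells with insulin alone gave 7 of 182 (3.85%, 1.56 to 7.76) and 4 of 190 (2.11%, 0.577 to 5.30). Cells with Gcg alone gave 4 of 182 (2.20%) and 7 of 174 (4.02%). The order of insulin and Gcg thus turned around between the libraries. Cells with Ppy alone gave 2 of 54 (3.70%) and 7 of 68 (10.3%), and their median depths, 28784.5 and 30339.5 UMIs, were the highest of the groups. Of 191 and 201 cells with more than 1 hormone, 5 (2.62%) and 14 (6.97%) were counted. No cell with Sst alone was counted, 0 of 35 and 0 of 23 cells, which allows shares of up to 8.57% and 13.0% (3 cells of 35 and of 23).

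With 10 or more genes required, most hormone-positive cells dropped out. The hormone-free group kept 12 of 91 (13.2%, 7.0 to 21.9) and 11 of 92 (12.0%, 6.12 to 20.4) cells, and the hormone-positive cells kept 3 of 644 (0.466%) and 2 of 656 (0.305%). Insulin alone was found in 3 of 182 (1.65%, 0.341 to 4.74) and 1 of 190 (0.526%, 0.0133 to 2.90) such cells. Gcg alone gave 0 of 182 and 0 of 174, which allows up to 1.65% and 1.72%, and Ppy alone gave 0 of 54 and 0 of 68, which allows up to 5.56% and 4.41%. The fifth hormone-positive cell, in library 2, held both Gcg and Ppy.

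**Figure D2:**
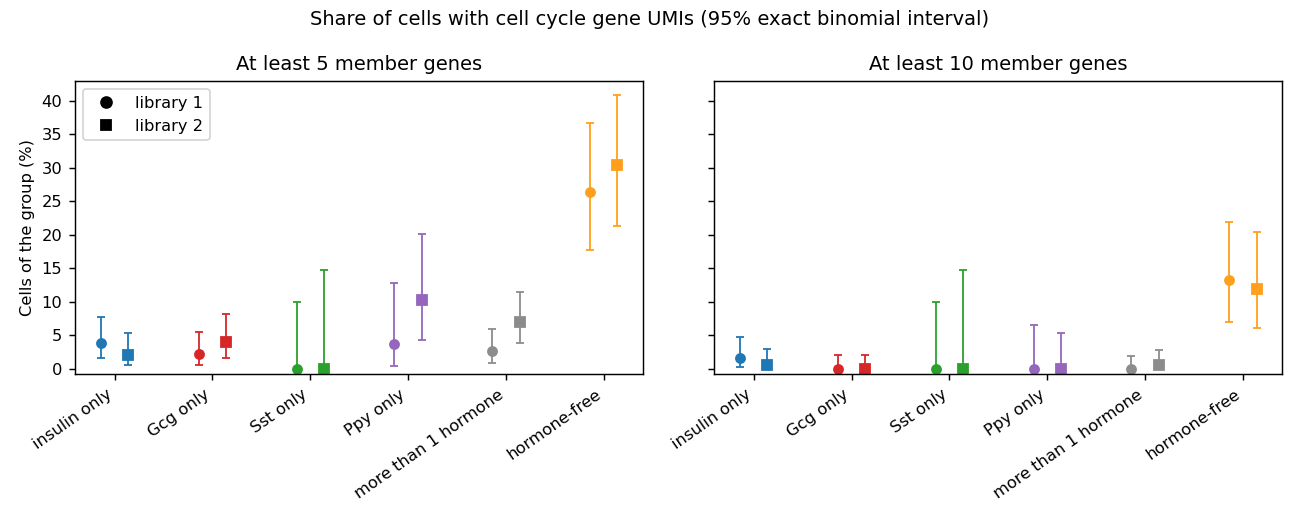
Share of the cells of each hormone group (percent, vertical axis) with UMIs of at least 5 (left) or at least 10 (right) of the 36 genes, as 1 point per library with its 95% exact binomial interval, also where no cell was counted. Hormone-free cells stand at 26.4% and 30.4% on the left and at 13.2% and 12.0% on the right, above every hormone group in both libraries.

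Most of the 28 cells of the upper class carried markers of leukocytes. UMIs of at least 5 of 8 leukocyte genes, among them Ptprc (CD45, the common surface antigen of white blood cells), were found in 17 of the 28 cells, 15 of the 23 hormone-free ones (65.2%) and 2 of the 5 with a hormone. Hormone-free cells with fewer cell cycle genes often met the list too, 11 of 29 with 5 to 9 (37.9%) and 55 of 131 with 0 to 4 (42.0%), against 8 of 1250 hormone-positive cells with 0 to 4 (0.640%). The list thus followed the hormone-free group as a whole, and whether it was met more often in the upper class was not tested. At least 5 of 8 B cell genes were found in 11 and at least 5 of 8 T cell genes in 5, and 1 cell, in library 2, met both with all 8 genes of each list. No cell of the 28 met the macrophage list, and none was marked by Scrublet. Insulin took between 0.0907% and 0.236% of the UMIs of the 23 hormone-free cells.

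The cells with the most cell cycle genes were T-like and B-like. The 2 cells with all 36 genes, in library 2, held 917 and 914 cell cycle UMIs of 50950 and 49310, and 7 and 6 of the T cell genes. Cd3e, a chain of the T cell receptor complex, had 10 and 6 UMIs in them, and Ptprc had 48 and 36. Both had Mki67, the proliferation antigen Ki-67, at 94 and 115 UMIs and Top2a, the enzyme that untangles replicated DNA, at 122 and 139. In library 1 a hormone-free cell held 35 of the 36 with 662 UMIs, 7 B cell genes and 408 UMIs of Jchain, which joins secreted antibody chains in plasma cells; Mki67 reached 159 UMIs in it.

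A second set of 6 hormone-free cells, 2 in library 1 and 4 in library 2, carried duct markers. Krt19, a keratin of duct epithelium, had 56 to 183 UMIs in them, Epcam, an epithelial adhesion protein, had 58 to 146, and Sox9, a duct transcription factor, had 2 to 14, while Ptprc was at 0 in all 6. The list of 8 duct genes does not by itself mark duct cells here, since 572 of the 1250 hormone-positive cells with 0 to 4 cell cycle genes (45.8%) also had UMIs of at least 5 of them. In those hormone-positive cells Epcam was found in 86.6%, with a median of 3 UMIs, whereas Krt19 was found in 1.76% and Sox9 in 5.36%. Krt8 and Krt18 had medians of 64.5 and 11.5 UMIs in the 6 cells, against 2 and 3 in those hormone-positive cells. The other genes of the list went the other way. Krt7 had a median of 1 UMI in the 6 cells against 3. Cldn4 was found in 1 of the 6 against 57.4% of the hormone-positive cells, and Spp1 in none against 22.9%. The 6 cells held 14 to 31 of the 36 genes. The endothelial list was met by 2 cells: one in library 1 with 11 of 12 endothelial genes, Kdr at 92 and Flt1 at 80 UMIs (both VEGF receptors), and 26 cell cycle genes, and the deepest cell of library 2. The latter, with 177513 UMIs, had 10 cell cycle genes with 26 UMIs in all and none of them after thinning to 4000 UMIs, with Flt1 at 0 and Kdr at 1 UMI. Its markers were mixed: it had 6 of the 12 endothelial genes, 8 of the 10 general endocrine genes with Chga at 137 UMIs, and 4 genes each of the pericyte and Schwann cell lists, so it is given no cell type.

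Taken by marker list, the share of hormone-free cells with 10 or more of the 36 genes was 9 of 32 among those with B cell markers (28.1%, 13.7 to 46.7), 5 of 22 with T cell markers (22.7%, 7.82 to 45.4) and 6 of 26 with duct markers (23.1%, 8.97 to 43.6). It was 2 of 61 with endothelial markers (3.28%, 0.40 to 11.4), 1 of the 2 being the barcode given no cell type. It was 0 of 19 with macrophage markers and 0 of 15 with none of these lists, with Clopper-Pearson intervals up to 17.65% and 21.8%. The lists are not exclusive, the 2 libraries are pooled here, and the intervals of the B cell, T cell and duct sets overlap widely. The intervals of the 2 sets without such a cell overlap them too. The sets also differ in depth, with a median of 29637.5 UMIs for duct markers. It was 10738 for B cell, 9717 for T cell, 15753 for endothelial and 11387 for macrophage markers, and the part of depth was not tested.

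Of the 5 hormone-positive cells, 2 met the leukocyte list as well. One, in library 1, had 12.9% of its 79715 UMIs from insulin, 35 of the 36 genes with 574 UMIs, all 8 B cell genes and Ptprc at 49 UMIs. The other, in library 2, had 6.14% Gcg and 3.87% Ppy, 27 of the genes with 313 UMIs and 6 B cell genes. Whether 1 barcode held 2 cells there was not tested beyond Scrublet, which marked neither.

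The other 3 cells had insulin alone, 8 or 9 of 9 beta cell genes and 0 UMIs of Ptprc. The first, in library 1, gave 38.8% of its 63480 UMIs to insulin and held 32 of the 36 genes with 889 UMIs. Mafa, a beta cell transcription factor, had 94 UMIs in it and Iapp, the amylin precursor, 1899. Of its cell cycle UMIs 98.1% belonged to mitosis genes: Top2a had 194, Mki67 87, Ube2c 38 and Plk1 25, against 4 of Pcna and 0 of Mcm6. The second, also in library 1, gave 43.9% of 20671 UMIs to insulin and held 24 of the genes with 187 UMIs, 96.8% of them of mitosis genes. The third, in library 2, gave 40.6% of 16579 UMIs to insulin and held 13 of the genes with 59 UMIs, 44.1% of them of mitosis genes, with Mcm6 at 7 and Pcna at 6. The first 2 thus lay at the mitosis end of the 28 cells, whose share of mitosis genes ranged from 8.06% to 98.1% with a median of 68.3%, and the third below the median.

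**Figure D3:**
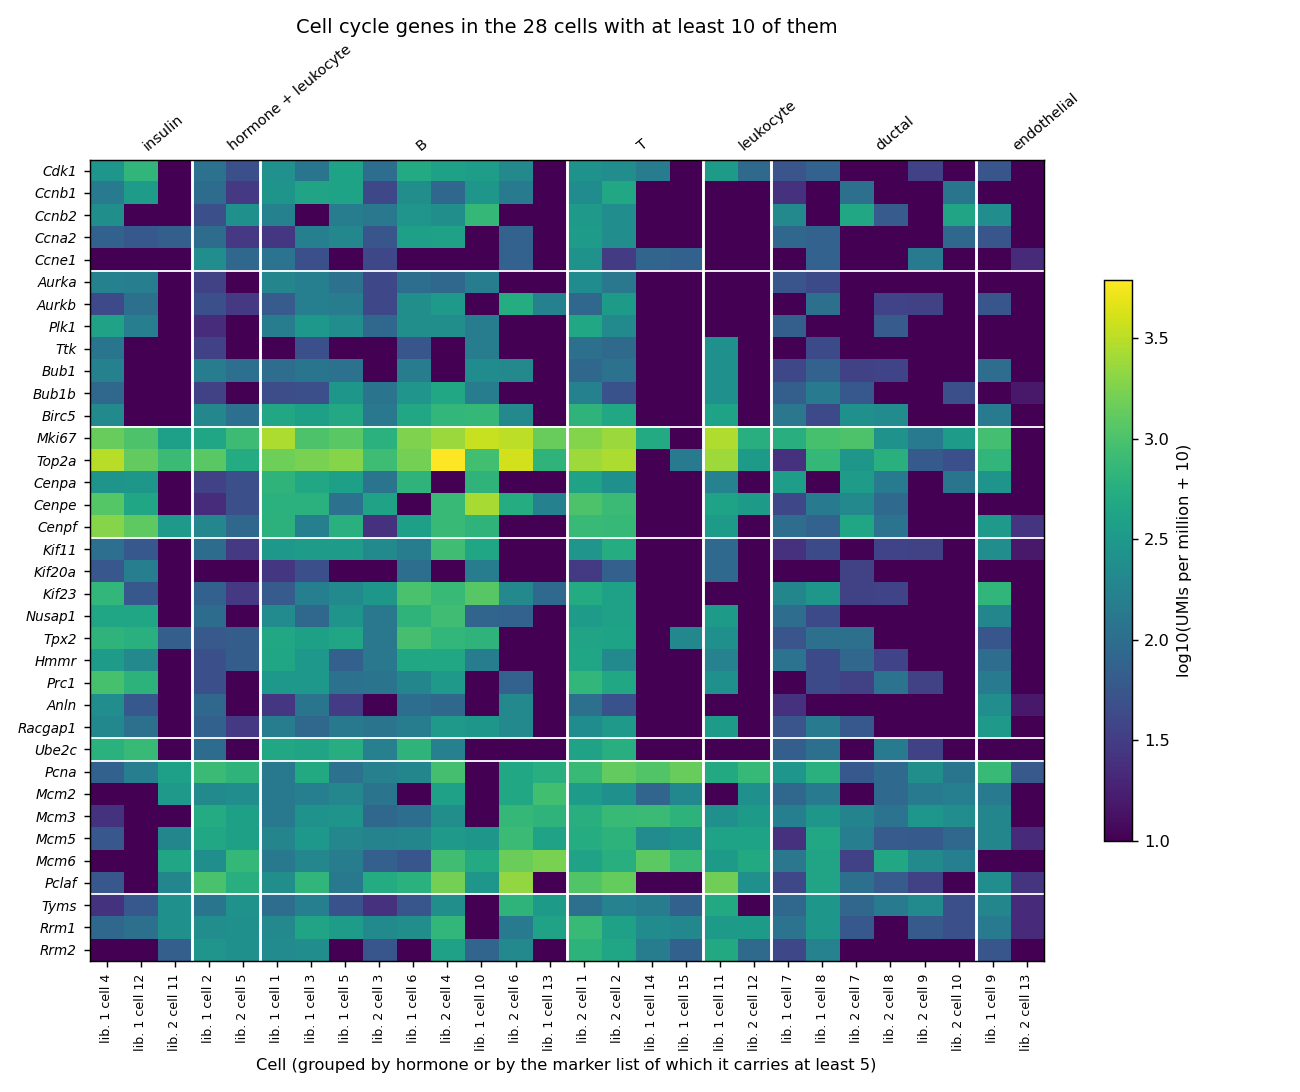
Level of each of the 36 cell cycle genes (rows, grouped by role) in each of the 28 cells with at least 10 of them (columns), as log10 of CPM plus 10. Columns are grouped by insulin content or by the marker list met; Mki67 and Top2a each have UMIs in 26 of the 28 columns, while most replication genes at the bottom are low in 2 of the 3 insulin cells.

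Genes of the cycle that the rule did not use were compared across the classes. The median summed level of 46 other S phase genes was 397 per 1000000 UMIs of the cell (CPM) with 0 to 4 of the 36 genes, 498 CPM with 5 to 9 and 4513 CPM with 10 or more. For 89 other G2 and M phase genes it was 878, 1071 and 8148 CPM. In the upper class the medians were 3543 and 5105 CPM for the S phase genes and 8995 and 4943 CPM for the G2 and M phase genes in libraries 1 and 2, above the medians of the other classes in both. The lower class lay near the cells with 0 to 4 genes on both lists, and its highest values, 4180 and 3876 CPM, overlapped with the upper class. The 15 G1 cyclins and kinases did not separate the classes, at 1875, 1816 and 1877 CPM, nor did 21 inhibitors and quiescence genes, at 872, 1246 and 1065 CPM. The classes also differ in make-up, with 23 of 28 cells hormone-free in the upper class against 131 of 1381 with 0 to 4 genes. Genes of these lists such as Ccnd2 differed between the hormone groups (given at the end), so these medians do not compare like cells. The part of cell type in them was not tested.

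**Figure D4:**
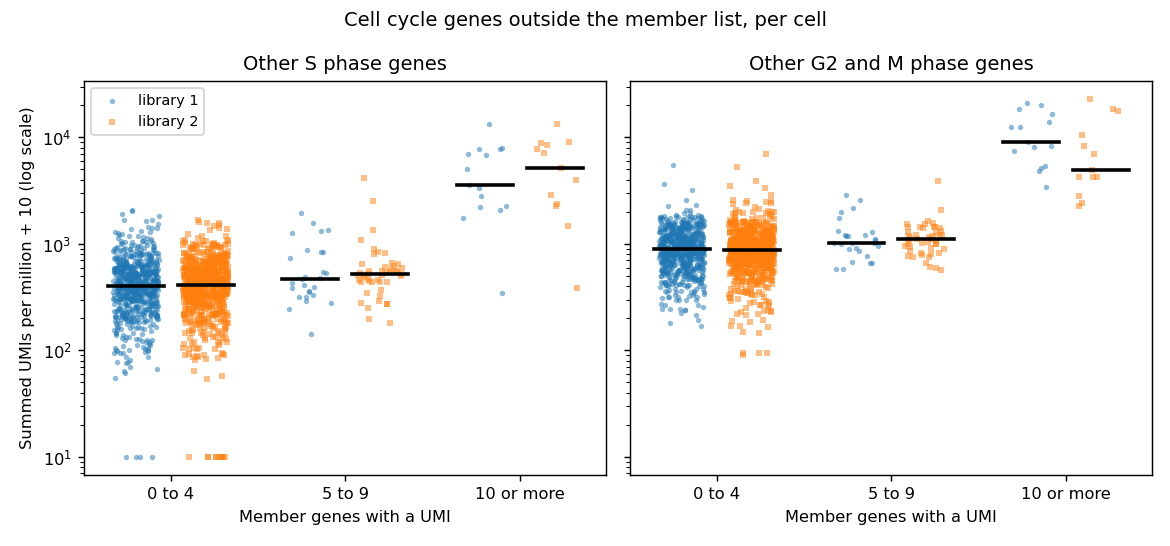
Summed level of 46 other S phase genes (left) and 89 other G2 and M phase genes (right) in each cell, in CPM plus 10 on a log axis, by the number of the 36 genes detected and by library. Black bars are medians; those of the 10 or more class are 3543 and 5105 for the S phase genes and 8995 and 4943 for the G2 and M phase genes, while the 5 to 9 class lies near the cells with 0 to 4.

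Over the whole libraries the members fell into 2 patterns by role. The mitosis genes had 86.0% of their UMIs in the 28 cells and the replication genes 40.9%. The members chose these cells, so shares of this kind describe them and were not tested. Levels below are CPM of the whole library, counted at RNA 3′ ends without scaling to length, so they are compared within a gene and not between genes. With library 2 set against library 1, 24 of the 26 mitosis genes were lower in library 2, by a median of -0.62 on the log2 CPM scale, whereas the replication genes had a median of 0.13. Since a few cells held most of these UMIs, a single cell could move a library's level.

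Among the cyclins and their kinase, Cdk1, which drives the entry into mitosis, had 113 UMIs in 20 cells of library 1 (7.09 CPM) and 44 UMIs in 10 cells of library 2 (2.52 CPM), 93.6% of them in the 28 cells. Its partners Ccnb1 and Ccnb2 had 4.90 and 2.87 CPM and 4.46 and 5.22 CPM, with 97.7% and 93.2% in the 28 cells. Ccna2, the cyclin of S and G2, was spread further, with 61.5% there, and Ccne1, the cyclin of the step from G1 to S, had 48.7%. Named pseudogenes of Ccnb1 and Ccnb2, as of Pcna and Tyms, make their counts less certain.

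Of the mitotic kinases and checkpoint genes, Plk1 and Aurkb, kinases of chromosome separation, had 85.9% and 87.3% of their UMIs in the 28 cells. The spindle checkpoint genes Bub1, Bub1b and Ttk had 98.6%, 81.4% and 89.7%, and Birc5, which anchors Aurora B, had 95.3%. Aurka, the kinase of the spindle poles, differed from its group with 42.5%, and 62 of 1381 cells with 0 to 4 genes (4.49%) held a UMI of it.

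Of the chromosome and centromere genes, Mki67 had 644 UMIs in 26 cells of library 1 (40.4 CPM) and 461 UMIs in 19 cells of library 2 (26.4 CPM), with 97.0% in the 28 cells. It was detected in 26 of the 28 cells, in 5 of 74 cells with 5 to 9 genes and in 14 of 1381 cells with 0 to 4 (1.01%). Top2a had 42.9 and 32.2 CPM and was found in 26 of 28, 10 of 74 and 16 of 1381 cells (1.16%). The kinetochore genes Cenpe and Cenpf had 90.6% and 88.0% of their UMIs in the 28 cells, and Cenpa, the histone of the centromere, had 64.1%, with UMIs in 15 of 74 cells of the lower class.

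The spindle and cytokinesis genes were the most varied group. Hmmr and Tpx2, which act on spindle microtubules, had 97.2% and 96.1% of their UMIs in the 28 cells, and the motor Kif11 and the microtubule binder Nusap1 had 77.9% and 78.5%. Kif23, Prc1 and Anln, which work in the division of the cell body, had 78.4%, 69.2% and 71.9%. Racgap1, of the same complex as Kif23, had 42.6%, and Kif20a, another motor of that step, had 32.1%, with only 31 and 25 UMIs. Kif20a overlaps Cdc23 on the other strand and Prc1 overlaps Rccd1. In all, 7 of the 36 genes overlap another annotated gene on their own strand and 11 on the other strand, and without a stated use of strand the reads of such neighbours cannot be told apart. Ube2c, the ubiquitin-conjugating enzyme of mitotic exit, had 9.42 and 3.78 CPM in 14 and 6 cells and 97.7% in the 28 cells.

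The replication genes were detected well beyond the upper class. Pcna, the sliding clamp of DNA polymerase (chr2:132249162-132253314, minus strand, GRCm38), had 835 and 878 UMIs in 313 and 313 cells, 52.4 and 50.3 CPM, and 23.9% in the 28 cells. A UMI of it was found in 27 of 28, 63 of 74 and 536 of 1381 cells (38.8%) of the 3 classes. Mcm6, a subunit of the replicative helicase, had 21.7 and 25.5 CPM and 36.2% in the 28 cells, and its fellow subunits Mcm2, Mcm3 and Mcm5 had 44.0%, 62.9% and 74.6%. Pclaf, which binds Pcna, had 70.1%. In nucleotide synthesis, Rrm2, the ribonucleotide reductase subunit made in S phase, had 84.6% and UMIs in 18 of 1381 cells with 0 to 4 genes (1.30%), while its partner Rrm1 had 29.0% and 272 of 1381 (19.7%) and Tyms, thymidylate synthase, had 28.1% and 164 of 1381 (11.9%).

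**Figure D5:**
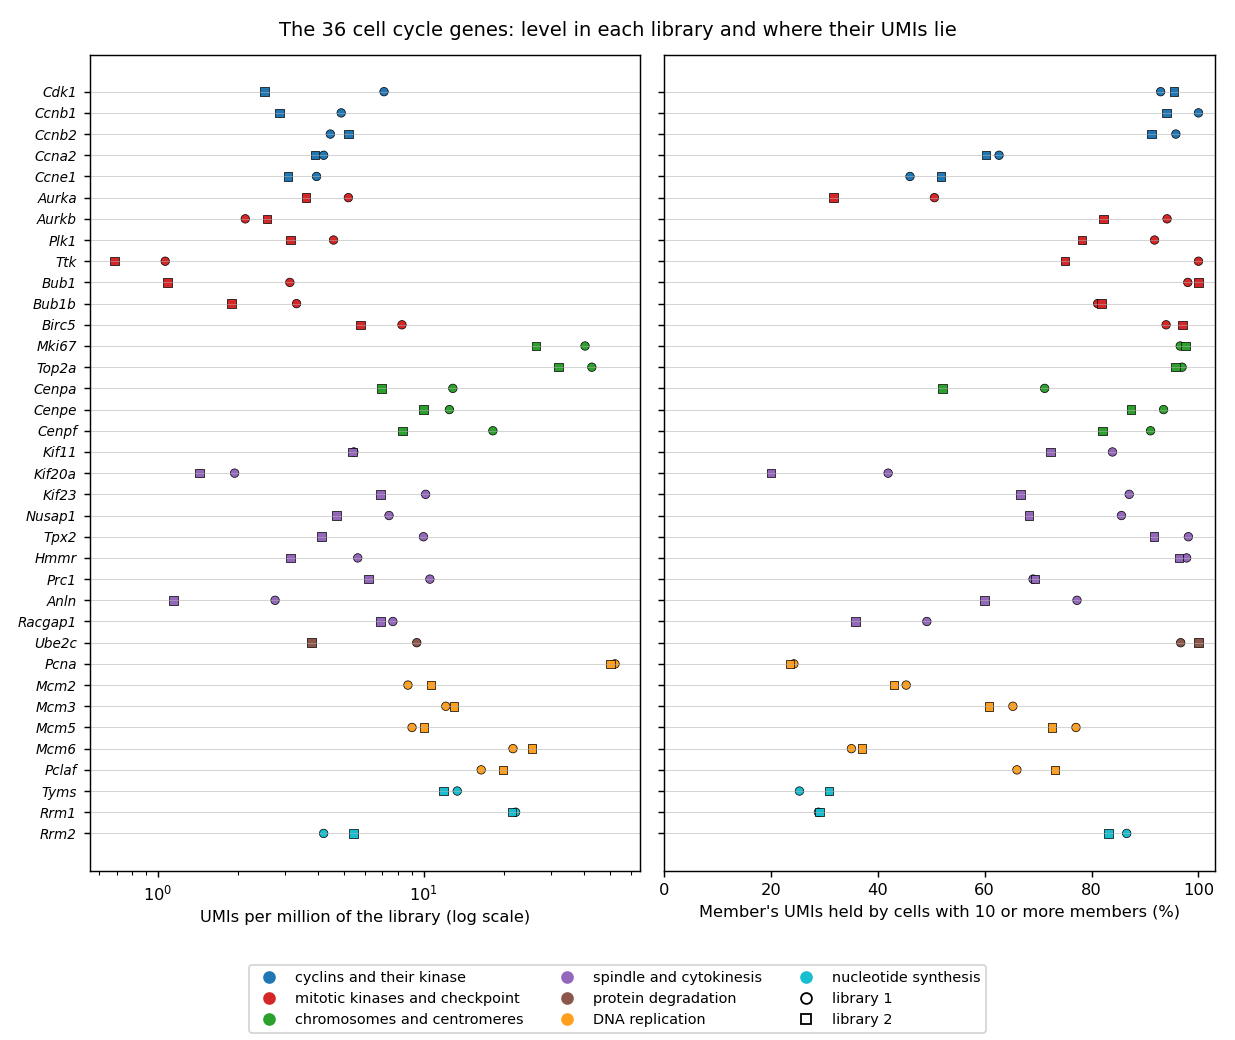
Left, level of each of the 36 genes in CPM of the library (log axis), for library 1 (circles) and library 2 (squares), coloured by role. Right, percent of each gene's UMIs held by the 28 cells with 10 or more of the genes; most mitosis genes lie above 60%, while Pcna, Tyms, Rrm1 and Mcm6 lie below 40% in both libraries.

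The sums of UMIs per hormone group and library were then compared across all genes with edgeR's quasi-likelihood test and Benjamini-Hochberg adjustment, leaving out the hormone genes. Hormone-free cells were set against the mean of the 4 groups with 1 hormone. Of 15357 genes tested 33.5% were higher in hormone-free cells and 25.5% lower at an adjusted p below 0.05, so a call in this comparison is common. Of the 36 members 35 were tested, all but Kif20a, and all 35 were higher. A gene counted mostly in hormone-free cells passes the filter on low counts through that group, so this count describes the members and supports nothing. In CPM all 36 were higher in hormone-free cells than in the pooled 1-hormone cells in both libraries, by 1.49-fold to 465-fold, where the median of all genes tested was higher by 0.51 on the log2 scale. How many of all genes were higher in both libraries is not given here, so this too only describes the members. In bulk sums of this kind fewer cells with a gene and less RNA per cell cannot be told apart.

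Among the replication genes Pcna had 193 and 173 CPM in hormone-free cells against 38.7 and 28.6 CPM in 1-hormone cells, a log2 fold change of 1.98 (SE 0.21, adjusted p = 8.5e-06). Mcm6 had 99.6 and 93.8 against 11.1 and 12.1 CPM, a log2 fold change of 2.30. Here and below the CPM are pooled over the 1-hormone cells. The fold changes come from the scaled edgeR fit, in which each 1-hormone group has the same weight, so they differ from the ratios of these CPM. The groups did not overlap for either gene. Among the mitosis genes Mki67 had 306 and 189 against 14.6 and 0.647 CPM, and Top2a 224 and 236 against 31.9 and 1.85 CPM. The 1-hormone level of both was thus far higher in library 1 than in library 2. Ccne1 had the smallest ratio in library 1, 6.89 against 4.64 CPM, with 12.0 against 1.76 CPM in library 2 (adjusted p = 0.046).

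The same sums were also made without the 28 cells, a choice made after seeing the data. These cells were picked by the members and 23 of them were hormone-free, so the hormone-free level of the members had to fall, and the values are a description. Of the members 16 passed the filter, and 8 were higher and 1 lower, where 32.3% of 14963 genes were higher and 24.6% lower. The higher ones were the replication genes Pcna, Mcm3, Mcm5 and Mcm6 and the mitosis genes Mki67, Top2a, Cenpa and Kif23. Pcna kept 140 and 127 against 32.3 and 28.05 CPM (log2 fold change 1.76). Mcm3 kept 44 and 72 UMIs against 16 and 12, and Cenpa 47 and 42 against 8 and 14. The groups did not overlap for either gene, and Mki67 rested on 8 and 9 UMIs against 6 and 1. Pclaf had 0 and 6 UMIs in the remaining hormone-free cells against 56 and 59 in the 1-hormone cells.

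Pcna in these remaining hormone-free cells was spread over the marker lists. It had 148 and 145 CPM in cells with B cell markers, 267 and 226 with T cell markers, 155 and 144 with endothelial markers, 157 and 125 with macrophage markers and 94.6 and 75.1 with duct markers. All of these exceeded the 32.3 and 28.05 CPM of the 1-hormone cells. Mcm3 had 63.0 and 58.3 CPM and Mcm6 53.3 and 62.1 CPM in the cells with endothelial markers, in which Top2a was at 0 in both libraries. Cenpa had 148 and 78.6 CPM in B cell marker cells (23 and 13 UMIs over 14 and 9 cells). In T cell marker cells it had 306 and 57.7 CPM (16 and 11 UMIs over 6 and 11 cells). It was lower in endothelial marker cells in both libraries, at 7.27 and 12.4 CPM (3 and 10 UMIs over 26 and 33 cells). The order of the B cell and T cell sets turned around between the libraries. Thinned to 4000 UMIs, hormone-free cells with fewer than 10 of the genes had means of 1.29 and 1.15 of them, and the other groups 0.259 to 0.600. Thinned UMIs and CPM include those of the hormones. With all cells kept, the sums without hormone genes were 2709457 and 2374584 of 4356370 and 4049618 UMIs in insulin cells. In hormone-free cells they were 1590535 and 2158629 of 1596727 and 2165154. The part of this in the means and CPM was not tested.

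Other genes of the cycle were counted in the same comparison. Of 43 other S phase genes tested 37 were higher in hormone-free cells and 1 lower. Of 77 other G2 and M phase genes 69 were higher and 1 lower, where 33.5% of all genes were higher and 25.5% lower. Like the members, a gene counted mostly in hormone-free cells passes the filter on low counts through that group. The counts are therefore a description. In pooled CPM the median differences of these S phase and G2 and M phase genes were 2.02 and 2.80 on the log2 scale (with a group at 0 set to 3 UMIs), against 0.51 over all genes. Uhrf1 had 25.7 and 25.9 CPM in hormone-free cells and at most 3.90 CPM in any 1-hormone group, and Stmn1, a regulator of microtubules in dividing cells, 43.2 and 61.4 against at most 9.18 CPM. Without the 28 cells the counts were 6 higher and 3 lower of 27 S phase genes and 12 higher and 5 lower of 32 G2 and M phase genes, with medians of 0.66 and 0.54 against 0.41 over all genes. The first of these shares lies below the 32.3% of all genes called higher and the other near it, and the removal of cells rich in cell cycle UMIs bears on these genes as on the members.

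Between insulin and Gcg cells 8 of 35 members tested were higher in insulin cells and none lower, where 11.5% of all genes were higher and 10.2% lower. They were Top2a, Mki67, Rrm2, Cenpe, Mcm5, Mcm3, Aurka and Racgap1. Of the 8 leukocyte genes 5 were higher in insulin cells as well, and their part in the result was not tested. Top2a had 315 and 15 UMIs in insulin cells against 5 and 1 in Gcg cells, and Mki67 144 and 7 against 4 and 0, so library 1 carried both. Of those in library 1, the 3 insulin cells of the upper class held 94, 194 and 27 UMIs of Top2a and 34, 87 and 21 of Mki67. The cell with 94 and 34 is the insulin barcode that also met the leukocyte list. The removal of the 28 cells took 4 insulin cells and no Gcg cell. Without them 16 members were tested, of which 1 was higher and 3 lower in insulin cells. The higher one was Aurka, at a log2 fold change of 1.82 (edgeR adjusted p = 0.043). Of all genes 13.3% were higher and 12.0% lower there. Aurka had 34 and 19 UMIs in insulin cells against 8 and 4 in Gcg cells (7.81 and 4.69 against 2.30 and 1.06 CPM), and its log2 fold change with the 28 cells kept was 2.23 (SE 0.58, adjusted p = 0.018). Of the other cycle genes 4 of 43 S phase and 8 of 77 G2 and M phase genes were higher and 1 and 2 lower with all cells, and 1 of 27 and 2 of 32 higher and 3 and 7 lower without the 28.

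Among the hormone groups the replication gene Mcm6 had its highest CPM in Sst cells. Mcm6 had 43.7 and 33.1 CPM in Sst cells (22 and 11 UMIs), against 5.75 and 11.9 CPM in Gcg cells, 11.7 and 9.88 in insulin cells and 10.6 and 13.2 in Ppy cells. The level in Sst cells lay above every other hormone group in both libraries. The log2 fold change of Gcg against Sst cells was -1.76 (SE 0.38, adjusted p = 0.011), the same size without the 28 cells (adjusted p = 0.0094), and it was the 1 member called in a comparison in which 4.81% of all genes were higher and 5.42% lower. Its fellow helicase subunits had few UMIs there: Mcm3 had 2 and 0, Mcm5 1 and 0 and Mcm2 2 and 4 in Sst cells. Against Sst cells, insulin cells had 1 member higher in the edgeR test, Racgap1 (46 and 30 UMIs against 1 and 0, adjusted p = 0.028), where 6.36% of all genes were higher and 5.68% lower. DESeq2 gave Racgap1 an adjusted p of 0.12. No member was called lower in insulin than in Sst cells with all cells kept, so Mcm6 did not pass there. Ppy cells against the other 3 groups had no member called by edgeR (at an unadjusted p below 0.05, 0 higher and 1 lower, Pclaf), where 7.64% of all genes were called, 4.79% higher and 2.85% lower, and DESeq2 called 1 member lower.

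The 50 hormone-positive cells counted by the rule were last compared with 150 cells of the same library and hormones, for each the 3 unused cells nearest in depth among those with fewer than 5 of the 36 genes. The counted cells were still deeper, with medians of 54643.5 and 34888 UMIs in the 2 libraries against 39762 and 32229 in the comparison cells and maxima of 114025 and 155671 against 66711 and 98314, and the part of depth in the result was not tested. The members chose these cells, so their levels are given as a description. Pcna had 97.4 and 82.8 CPM in the counted cells against 29.8 and 28.4 CPM in the others, Mcm6 41.8 and 54.5 against 5.05 and 11.0, and Top2a 314 and 32.2 against 0.459 and 0. Of 11512 other genes tested 43 were called (0.374%), 33 higher (0.287%) and 10 lower (0.0869%). The higher genes with the largest fold changes were Clspn, Cenph, Uhrf1, Cdca7 and Stmn1, known from dividing cells, the leukocyte genes Pou2af1, Ikzf1, Tnfrsf13c and Ctss, and Ldha, lactate dehydrogenase. Of 30 other S phase genes tested 5 were higher and of 32 other G2 and M phase genes 2, and none was lower.

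Few barcodes carried these differences. Of the 4151 UMIs of the 33 higher genes in the counted cells, 3620 (87.2%) lay in the 4 barcodes with at least 5 leukocyte genes, 1 in library 1 and 3 in library 2. Pou2af1, a B cell coactivator, had all 71 of its UMIs there, and Uhrf1, which maintains DNA methylation at replication, 45 of 47. The 10 lower genes were vessel genes such as Flt1, Kdr and Plvap, and 1497 of their 1625 UMIs (92.1%) lay in 3 comparison barcodes with endothelial markers. Flt1 had 4 UMIs in the counted cells and 395 in the comparison cells, 379 of them in those 3. Without the leukocyte-marker barcodes, also a choice made after seeing the data, edgeR called 0 of 11220 genes higher (210 at an unadjusted p below 0.05) and 5 lower (0.0446%). With the comparison limited to the 5 cells with 10 or more of the genes, 212 of 3432 genes were higher (6.18%) and 28 lower (0.816%). Among them were 21 of 24 other S phase genes and 23 of 27 other G2 and M phase genes, all higher. Of these 5 cells 2 were leukocyte-marker barcodes, and their part in the counts was not tested. A gene counted mostly in these cells also passes the filter on low counts through them, so the counts are a description.

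The leukocyte-marker barcodes bear on the shares as well. Removing them took 40 and 41 hormone-free and 5 and 7 hormone-positive barcodes. What remained had at least 5 of the 36 genes in 11 of 51 (21.6%) and 15 of 51 (29.4%) hormone-free and 17 of 639 (2.66%) and 29 of 649 (4.47%) hormone-positive cells. With 10 or more genes the counts were 3 of 51 (5.88%) and 5 of 51 (9.80%) hormone-free and 2 of 639 (0.313%) and 1 of 649 (0.154%) hormone-positive cells. The hormone-free share stayed above the hormone-positive share in both libraries at both thresholds.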

How the data were processed

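Single-cell RNA was measured in 2 technical-replicate libraries of mouse islet cells. The authors deposited raw UMI counts per gene and cell barcode, made with Cytonaut v1.2: UMI-tools v1.1.2 chose barcodes at the knee of the depth curve and reads over exons were counted on GRCm38 with Ensembl release 99. Seurat is also named in the submitters' processing notes. All deposited barcodes were kept.

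Cells were grouped by the stated rule, and shares were given per library with exact Clopper-Pearson intervals. UMIs were summed per library and group, low sums removed (filterByExpr), scaled by TMM and tested with edgeR 4.0.16 (R 4.3.3; quasi-likelihood, Benjamini-Hochberg adjustment over all genes tested). The test of counted hormone-positive cells used the 3 cells nearest in depth per cell, which left the counted cells deeper. DESeq2 1.42.0, other thresholds, a replicate block and removal of Scrublet calls (scanpy 1.11.5) were alternatives. Scripts (Python 3.11.15, numpy 2.4.6, scipy 1.17.1) were tested on simulated data. The named genes are all 36 members, up to 6 called genes of each other list and the 10 strongest called non-members in each direction, ranked by absolute log2 fold change. Members and lists were chosen with earlier results of these data known.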

Additional observations from a re-analysis of the deposited data

How the results depend on the processing

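The share of cells counted (6.87%) followed the threshold: it was 27.5%, 13.96%, 4.24%, 2.36% and 1.89% at 3, 4, 6, 8 and 10 genes, 1.69% on mitosis genes alone and 1.89% after thinning to 4000 UMIs, and 5.71% to 8.02% when either library was left out. The hormone-free minus hormone-positive difference (24.6 percentage points) kept its sign at 42.2, 35.8, 20.1, 14.8 and 12.2 for those thresholds, 10.5 on mitosis genes alone, 12.2 after thinning, 21.5 with hormones at 5% of UMIs, 21.9 without leukocyte-marker barcodes (added after seeing the data) and 23.6 to 25.6 when either library was left out.

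Members higher in hormone-free cells numbered 35, and 8 without the 28 cells with 10 or more genes, a setting added after seeing the data in which Aurka (-0.28), Pclaf (-1.94), Prc1 (-0.43) and Cenpf (-3.66, an estimate with hormone-free cells at 0) were lower on the log2 scale, a turn that the choice of these cells by the members builds in. For insulin against Gcg cells the 8 members higher became 23 with no filter. Without the 28 cells 1 was higher and 3 lower, and Mki67 (-0.21) and Top2a (-1.24) turned. Cenpe was at -0.23 without replicate 1 and 4.46 without replicate 2. For insulin against Sst cells the 1 member higher became 13 with no filter and 2 with hormones at 2% of UMIs. Without the 28 cells 0 were higher and 1 lower. The 43 genes that differed between counted hormone-positive cells and those nearest in depth became 282 with no filter, 167 against all other cells of the same hormones, 17 with 1 comparison cell, 219 and 240 at 8 and 10 genes and 5 without leukocyte-marker barcodes. The share called higher in hormone-free cells was 56.8% of calls by TMM and 61.9% by DESeq2 size factors. Leaving out 1 library left no residual degrees of freedom in that comparison, so those settings gave fold changes with no test.

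The numbers 1 and 2 of the libraries did not pair the sums: deviations of same-numbered sums correlated at -0.063 to 0.098 (median 0.028, 10 pairs of groups, 13055 genes). A fit with the replicate block called 35 members higher in hormone-free cells, 11 in insulin against Gcg cells, 1 in insulin against Sst cells and 92 genes in the comparison with cells nearest in depth.

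Rare cells set the limits here. With 28 cells in the upper class, shares of groups of fewer than 100 cells carry wide intervals, and a single cell rich in cell cycle UMIs can move a library's level of a mitosis gene. Both libraries come from 1 preparation.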

Other observations

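The D cyclins, which act before S phase, differed between the hormone groups. Ccnd2, the D cyclin known for its role in beta cell growth, had 2320 and 2303 CPM in Gcg cells and 1727 and 1668 in insulin cells, 1443 and 1612 in Sst cells, 867 and 981 in Ppy cells and 620 and 530 in hormone-free cells. It was lower in hormone-free cells at a log2 fold change of -1.84, higher in insulin and in Gcg than in Sst cells at 0.89 and 0.98, and lower in Ppy cells at -0.77, and the edgeR test called each (adjusted p from 1.1e-07 to 0.0010). Ccnd1 had its highest level among hormone groups in Sst cells, 241 and 229 CPM, against 107 to 126 in the others. With the scaling of the edgeR fit it was lower in Gcg than in Sst cells (log2 fold change -0.71), and the difference of insulin from Sst cells did not pass (-0.17, adjusted p = 0.49). Ccnd3 had 28.2 and 25.9 CPM in Gcg cells against 7.81 and 6.91 in insulin cells (log2 fold change -1.51). Of the 15 G1 genes tested 9 were higher and 1, Ccnd2, lower in hormone-free cells, where 33.5% of all genes were higher. Cdk6, a kinase of the D cyclins, had 72.0 and 79.4 CPM there and at most 6.62 in any 1-hormone group.

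Of the 20 inhibitors and quiescence genes tested 9 were higher in hormone-free cells and none lower, where 33.5% of all genes were higher and 25.5% lower. In insulin against Gcg cells 3 were lower, Cdkn1a, Trp53 and Btg2, and none higher, where 10.2% of all genes were lower and 11.5% higher. Cdkn1a, the inhibitor p21, had 202 and 200 CPM in hormone-free cells, 87.7 and 87.4 in Gcg cells and 40.2 and 29.4 in insulin cells, and Btg2, an antiproliferative gene, 191 and 178 in insulin against 462 and 440 in Gcg cells. Among 18 beta cell growth regulators 5 were higher and 3 lower in insulin than in Gcg cells, against the same shares of all genes. Prlr, the prolactin receptor, had 831 and 920 CPM in insulin cells against 6.33 and 3.96 in Gcg cells (log2 fold change 7.77, adjusted p = 2.2e-07), and Ghr, the growth hormone receptor, 148 and 126 against 70.5 and 68.1. Irs2, an adaptor of the insulin receptor, went the other way, with 52.3 and 43.7 CPM in insulin cells against 154 and 134 in Gcg cells.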
